A study of Mus musculus with 6 samples.

Results

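Laminin chains are the subject of the measurements below, in a mouse prostate cancer cell line stimulated through the CSF-1 receptor. The members were chosen as genes whose name in the array annotation begins with Lama, Lamb or Lamc and a number. The values of 10 such genes, read by 12 probes, are given here, among 36163 gene names on the array. Of the 10 genes, 8 were above background in at least 1 group and were tested, among 24648 genes tested in all. Lama1 and Lama4 were not tested.

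Laminins are secreted heterotrimers of an α, a β and a γ chain, and they form the sheet on which a basement membrane is built. Each chain has its own gene, and the combination of chains names the trimer. Cells bind laminins through integrins, dystroglycan and syndecans, and in the normal prostate a laminin-rich basement membrane separates the epithelium from the stroma.

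The cells were N18-Fms (N18-CFMS in the labels), made from TRAMP C2H, a clonal line of a prostate tumor of the TRAMP mouse. N18 is 1 luciferase-expressing clone of that line, in which murine c-fms, the gene of the CSF-1 receptor, was introduced with a retrovirus. All groups carried the receptor and were grown with dihydrotestosterone. Unstimulated cells, labelled as vehicle, were compared with cells given rmCSF-1 at 100 ng/mL during 24 h or 48 h, on 2 arrays per group. The labels give the RNA as coming from 2 independent experiments, but not which arrays share one. The methods of the study name 12 h and 24 h, and the labelled times of 24 h and 48 h are used here. No group lacked the receptor, and another clone was not analysed here.

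On the 6 arrays, between 58.7% and 72.0% of spots were well above background and 0 were saturated. A level here is the log2 signal of a probe minus the log2 of the 75th percentile over its array, and levels are compared between arrays only. Csf1r read between 4.88 and 5.34 on the 6 arrays on this scale. Of 9 epithelial markers, between 5 and 7 were well above background on each array, Krt5, Krt8, Krt14 and Cldn4 on all 6 and Cdh1 and Ocln on 0. All 8 mesenchymal markers were so on all 6. The summed level of the mesenchymal markers was 982.5 and 1012 times the 75th percentile in unstimulated cells. In stimulated cells it lay between 647.2 and 677.4 times. A sum of this kind weighs bright probes most. At an adjusted p-value under 0.05, 5 of 8 were lower at 24 h and 4 at 48 h, beside 5.99% and 7.38% of all genes. The summed level of the epithelial markers was 0.641 and 0.707 against 0.831 to 1.2. Of the 6 of them that were tested, 0 were called at 24 h and 1 was higher at 48 h. Of all genes, 14% were called at 24 h and 6.58% were higher at 48 h. Krt8 read -3.04 and -2.37 in unstimulated cells and -0.88 and -0.58 at 48 h. At 48 h it was the brightest of the 9 epithelial markers and weighed most in their sum. The median log2 fold change of the 6 tested was 0.15 at 48 h, with 5 positive and 1 negative (Krt5, -0.25). The part of these shifts in the results below was not tested. The RNA was bulk, so fewer cells of a type and less RNA per cell cannot be told apart. One array of cells stimulated for 24 h, replicate 1, lay on another slide and was scanned apart from the other 5.

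Expression of 1 laminin chain, Lama2, rose after CSF-1 at both times, and expression of Lamb2 and Lamc3 fell at 24 h. Each of these calls was lost without some single array, and that of Lamc3 whichever array was left out. At 24 h, 1 of 8 tested chains was higher and 2 were lower at an adjusted p-value under 0.05, beside 14% of all genes tested (8.02% higher and 5.99% lower). At 48 h, 1 chain was higher and 0 were lower, beside 14% of all genes (6.58% higher and 7.38% lower). With so few chains, neither count is read as different from that of all genes. The median log2 fold change of the 8 chains was -0.18 (24 h) and 0.0036 (48 h), against 0.04 and -0.04 over all genes. At the threshold of the study, a fold change of 2 and an unadjusted p-value under 0.05, Lama2 was the only chain called at either time, beside 5.86% and 4.66% of all genes that were higher by this rule. Across all genes at 24 h, 1977 were higher and 1476 lower. This split became 1197 and 3706 when each array was centred on its median, 2089 and 2337 after normexp background correction, and 1780 and 2164 after normexp with quantile normalization.

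**Figure D1:**
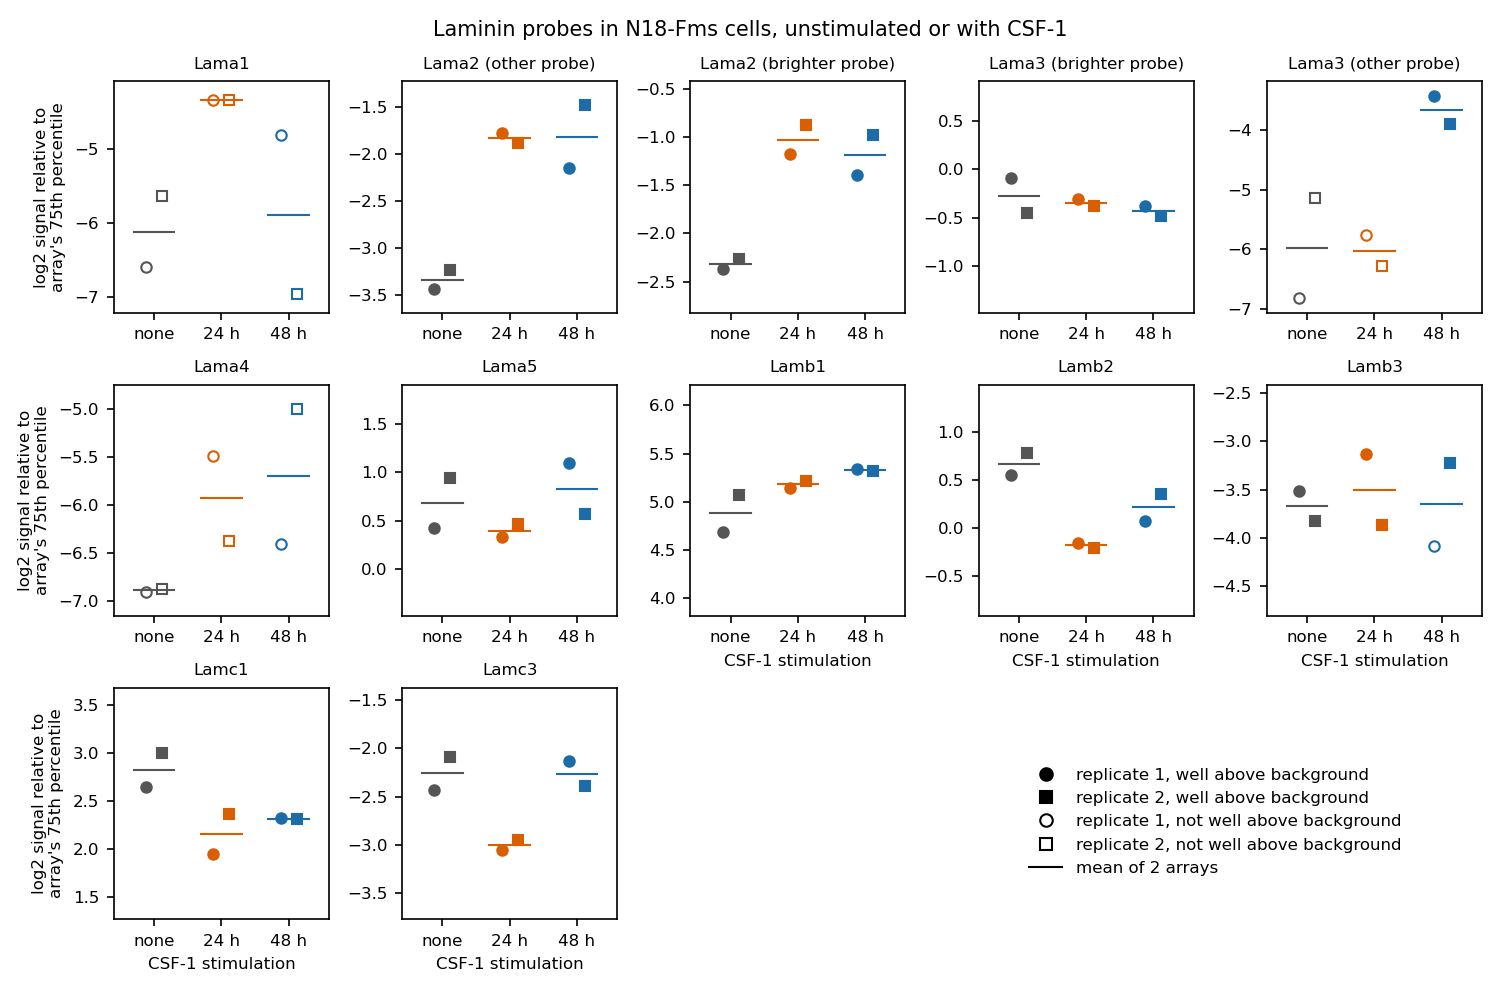
Level of each laminin probe (vertical axes, log2 signal over the array's 75th percentile) without stimulation and at both times of CSF-1. Each point is 1 array, circles are replicate 1 and squares replicate 2, open points were not well above background, and lines are means of 2 arrays. Both Lama2 probes lay higher on all 4 stimulated arrays, Lamb2 and Lamc1 lower, and Lama1 and Lama4 were not well above background on any array.

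The panels of probe values show each chain on its own axis, since the brightness of a probe depends on its sequence. In them, the stimulated arrays lay above both unstimulated arrays for Lama2 and Lamb1 and below them for Lamb2 and Lamc1. Over all genes, 18% lay above in this way and 23.3% below.

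The α chains carry most of the cell-binding sites of a laminin. Lama2 encodes α2, the chain of the laminin of muscle and peripheral nerve, whose loss causes a congenital muscular dystrophy. It was read by 2 probes on the array, and the brighter one stands for the gene in the tests.

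The brighter Lama2 probe read -2.37 and -2.27 in unstimulated cells, -1.18 and -0.88 at 24 h, and -1.39 and -0.98 at 48 h. All 4 stimulated arrays were above both unstimulated arrays, while 24 h and 48 h overlapped, and the probe was well above background on all 6. Lama2 rose by 1.29 at 24 h (SE 0.187, log2 fold change; 2.45-fold, 95% confidence interval 1.77 to 3.39; limma, adjusted p = 0.0148). At 48 h it was higher by 1.13 (SE 0.187; 2.19-fold, 1.58 to 3.04; adjusted p = 0.0212). Between the times it differed by -0.16, with an interval of -0.63 to 0.31 (adjusted p = 0.744).

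The other Lama2 probe read -3.44 and -3.23 in unstimulated cells, -1.78 and -1.88 at 24 h, and -2.15 and -1.48 at 48 h. It was well above background on all 6 arrays, and its stimulated arrays did not overlap with the unstimulated ones either. With every probe tested on its own, it was higher by 1.51 at 24 h (SE 0.241, adjusted p = 0.0209) and by 1.52 at 48 h (SE 0.241, adjusted p = 0.0222). Without the 24 h array of the other slide, the change of the gene at 24 h was 1.44 (adjusted p = 0.0463). The call at 24 h was lost without unstimulated replicate 1 (1.24, adjusted p = 0.0748), unstimulated replicate 2 (1.34, 0.0731) or 24 h replicate 2 (1.14, 0.0688), and that at 48 h without either unstimulated array (1.08, 0.105, and 1.18, 0.0878) or 48 h replicate 2 (0.93, 0.0828).

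Lama3 encodes α3, the chain that joins β3 in the laminin that anchors epithelial cells to their basement membrane. Its brighter probe read -0.09 and -0.45 in unstimulated cells, -0.31 and -0.38 at 24 h, and -0.38 and -0.48 at 48 h. These groups overlapped, and Lama3 was not called at 24 h (-0.07, adjusted p = 0.8) or 48 h (-0.16, adjusted p = 0.552). The second Lama3 probe read differently. It was not well above background on either unstimulated array (-6.81 and -5.14) or at 24 h (-5.77 and -6.28), and was so on both arrays at 48 h (-3.44 and -3.90). Its signal at 48 h was at least 2.43-fold higher than in unstimulated cells and at least 1.62-fold higher than at 24 h. These limits were set against the lowest signal that counted as well above background on each dim array, and hold for the signal as used here, not for other background corrections. In the fit with every probe on its own, the change at 48 h did not pass the test (2.30, SE 0.559, adjusted p = 0.0583). The 2 probes of Lama3 therefore disagreed at 48 h, and the mean of both gave 1.07 for the gene, against -0.16 for the brighter one.

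Lama5 encodes α5, a widespread chain of adult epithelial and vascular basement membranes. It read 0.42 and 0.94 in unstimulated cells, 0.33 and 0.46 at 24 h, and 1.1 and 0.57 at 48 h. Lama5 was not called (-0.29, adjusted p = 0.499, and 0.15, adjusted p = 0.74). The interval of the change reached from -0.92 to 0.34 at 24 h and from -0.48 to 0.78 at 48 h.

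Lama1 encodes α1, the chain of early embryonic basement membranes, and Lama4 encodes α4, found in vessel walls. Neither probe was well above background on any of the 6 arrays, so these chains have no measured change. The Lama1 probe lay between -6.97 and -4.34, and the Lama4 probe between -6.90 and -4.99.

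Among the β chains, Lamb2 encodes β2, which replaces β1 in the basement membranes of the neuromuscular junction and the kidney glomerulus. Its probe, A_51_P248044, lies at chr9:108392189-108392248 on the plus strand (mm9) and is printed because it carries the largest decrease among the chains at 24 h.
Lamb2 probe: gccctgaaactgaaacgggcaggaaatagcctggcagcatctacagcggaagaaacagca

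Lamb2 read 0.55 and 0.78 in unstimulated cells, -0.15 and -0.21 at 24 h, and 0.08 and 0.36 at 48 h. All 4 stimulated arrays were below both unstimulated arrays, and those at 48 h lay between the other groups without overlap. Lamb2 fell by 0.84 at 24 h (SE 0.151, log2 fold change; 95% confidence interval -1.22 to -0.46; limma, adjusted p = 0.0252). At 48 h the change was -0.45 (SE 0.151, interval -0.83 to -0.07), which did not pass the test after adjustment (adjusted p = 0.114). The difference between the times, 0.39, did not pass it either (adjusted p = 0.349). The call at 24 h was lost without unstimulated replicate 1 (-0.96, adjusted p = 0.0631), unstimulated replicate 2 (-0.73, 0.112), 24 h replicate 1, the array of the other slide (-0.87, 0.0993), or 24 h replicate 2 (-0.82, 0.105).

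Lamb1 encodes β1, the common β chain of most basement membranes. It read 4.69 and 5.07 in unstimulated cells, 5.14 and 5.22 at 24 h, and 5.34 and 5.32 at 48 h. The 3 groups did not overlap and were ordered by time of stimulation, but the unstimulated arrays differed from each other by more than the other pairs. Neither change passed the test (24 h: 0.30, SE 0.155, adjusted p = 0.26; 48 h: 0.45, SE 0.155, adjusted p = 0.12).

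Lamb3 encodes β3, a partner of α3. It was well above background on 5 of 6 arrays, all but 48 h replicate 1. It read -3.51 and -3.82 in unstimulated cells, -3.14 and -3.87 at 24 h, and -4.09 and -3.22 at 48 h, so that all groups overlapped. The changes of 0.16 and 0.01 were not called (adjusted p = 0.815 and 0.988), and their intervals were wide, from -0.77 to 1.1 and from -0.92 to 0.95. The sign of both changes turned under quantile normalization and median centring.

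Among the γ chains, Lamc1 encodes γ1, which is part of most laminin trimers. It read 2.65 and 2.99 in unstimulated cells, 1.95 and 2.36 at 24 h, and 2.32 and 2.31 at 48 h. All 4 stimulated arrays were below both unstimulated arrays. The change was -0.66 at 24 h (SE 0.191, interval -1.14 to -0.18) and -0.51 at 48 h (SE 0.191, interval -0.99 to -0.03). Neither passed after adjustment (0.0799 and 0.146), although the change at 24 h did so under median centring (adjusted p = 0.0426), both forms of normexp (0.0214 and 0.0336) and an intensity trend in the prior spread (0.0248). In this order, these settings called 3706, 2337, 2164 and 2559 of all genes lower at 24 h, against 1476 in the fit used here.

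Lamc3 encodes γ3, a chain described mainly in nerve, skin and reproductive tissue. It read -2.43 and -2.08 in unstimulated cells, -3.06 and -2.95 at 24 h, and -2.13 and -2.39 at 48 h. The arrays at 24 h were below all others, and those at 48 h overlapped with the unstimulated arrays. Lamc3 fell by 0.74 at 24 h (SE 0.17, interval -1.17 to -0.32; limma, adjusted p = 0.0461) and its change at 48 h was -0.0053 (adjusted p = 0.988). The difference between 48 h and 24 h was 0.74 (SE 0.17), with an adjusted p-value of 0.19. The call at 24 h was lost whichever array was left out, and the change then lay between -0.92 and -0.57. Without the array of the other slide it was -0.69 (adjusted p = 0.176), and under normexp with the 75th percentile shift -0.34 (adjusted p = 0.118).

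**Figure D2:**
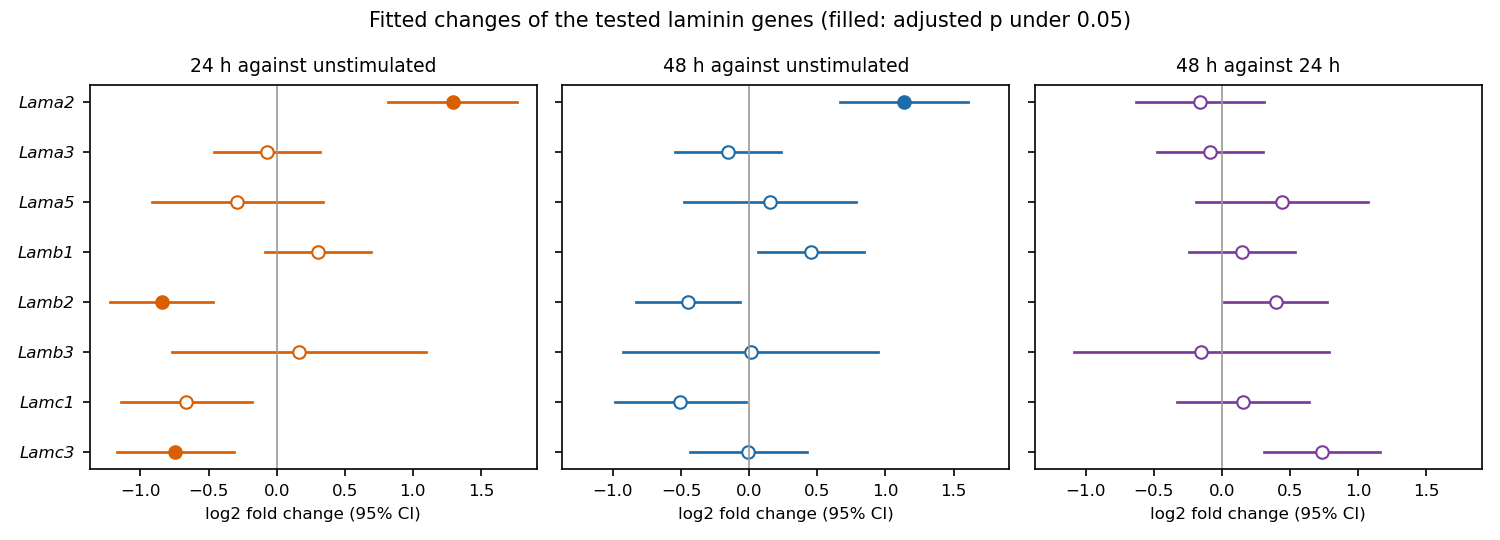
Log2 fold change (horizontal axes) of the 8 tested laminin genes in 3 comparisons of 2 arrays with 2, with 95% confidence intervals from 1 limma fit over 6 arrays. Filled points passed an adjusted p-value of 0.05, which Lama2 did at 24 h and 48 h, Lamb2 and Lamc3 at 24 h only, and no chain between 24 h and 48 h.

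The plot of fitted changes also shows the comparison between the times, in which 0 of 8 chains and 0 of 24648 genes passed after adjustment. Without adjustment, Lamb2 and Lamc3 were higher at 48 h than at 24 h at a p-value under 0.05, as were 4.38% of all genes (13.6% in either direction). Passing at 24 h and missing at 48 h is therefore not shown to be a difference between the times for either chain. The α and β chains of the epithelial trimer, Lama3 by its brighter probe and Lamb3, were not called in any comparison. An exact test of single values cannot go below p = 0.333 with 2 arrays against 2, so each call rests on the spread pooled across genes and on 6 arrays in 1 fit.

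**Figure D3:**
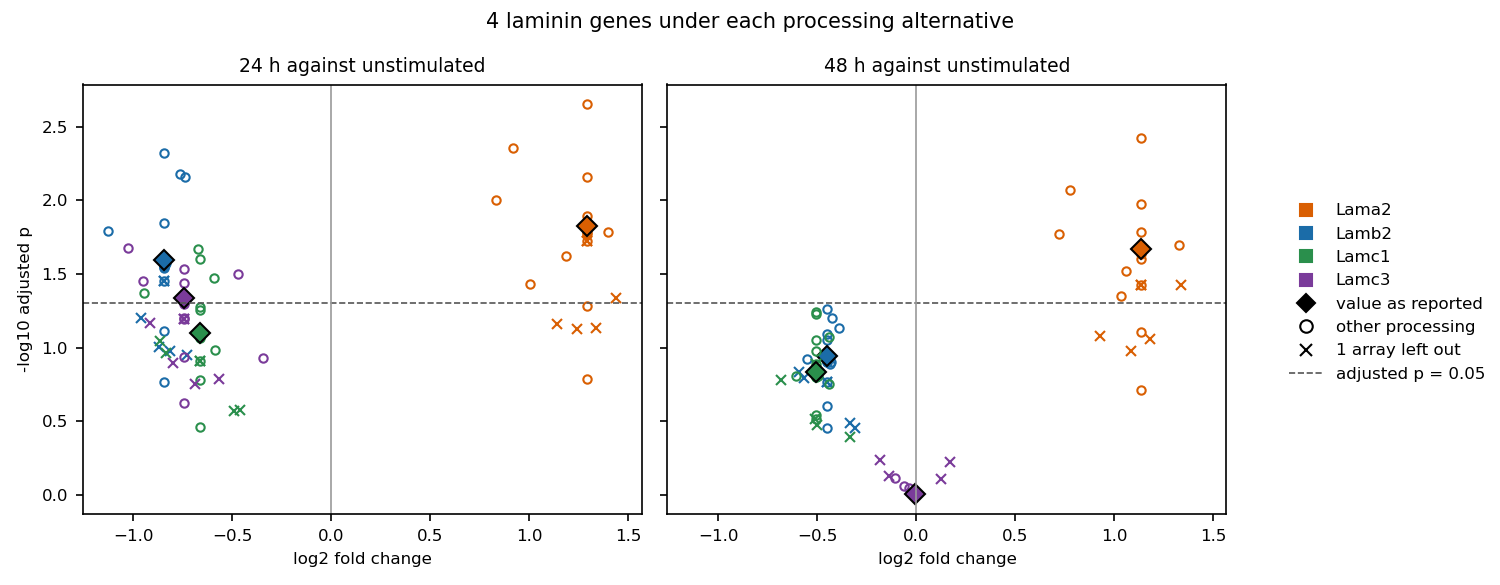
Log2 fold change (horizontal axis) and -log10 adjusted p (vertical axis) of 4 laminin genes under each processing alternative and with each array left out. Diamonds are the values reported here and the dashed line is an adjusted p of 0.05. Lama2 stays to the right of 0 and Lamb2 and Lamc1 to the left, and points of each of them fall on both sides of the line at 24 h.

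The plot of the alternatives shows 20 other settings for Lama2, Lamb2, Lamc1 and Lamc3. Leaving out either array of the group not compared gives the same fit as using only the 2 groups compared, so these settings are not all separate. Lama2 was past the threshold in 15 of 20 at 24 h and in 15 of 20 at 48 h, with changes from 0.83 to 1.44 and from 0.72 to 1.34. At 24 h, Lamb2 was past it in 14 of 20 settings, with changes from -1.13 to -0.73. Lamc3 was past it in 8 of 20, and Lamc1 in 4 of 20. These 4 chains kept their sign at 24 h in all 20 settings.

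Promoter sequences were matched by symbol in a RefSeq table of build GRCm38.p6, which held 6 entries for 5 of the 10 laminin genes. The 250 bases before the start of Lama2 and Lamb2 are shown, as the chain that rose and the chain that fell most. Both strands were searched for the letters of AP-1 sites, TGANTCA, which 6.75% of 32851 promoters of that length hold. The letters of STAT sites, TTCNNNGAA, are held by 7.02% of them, and those of SP1 sites, GGGCGG, by 32.7%. Matches are in capitals, and no matches to different motifs overlapped in the sequences shown.
Lama2, chr10:27616943-27617192, minus strand: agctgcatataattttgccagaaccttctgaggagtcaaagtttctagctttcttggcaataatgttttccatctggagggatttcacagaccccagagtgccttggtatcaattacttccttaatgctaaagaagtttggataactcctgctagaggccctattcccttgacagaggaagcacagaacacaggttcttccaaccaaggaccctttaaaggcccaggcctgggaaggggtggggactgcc
Lamb2, chr9:108479612-108479861, plus strand: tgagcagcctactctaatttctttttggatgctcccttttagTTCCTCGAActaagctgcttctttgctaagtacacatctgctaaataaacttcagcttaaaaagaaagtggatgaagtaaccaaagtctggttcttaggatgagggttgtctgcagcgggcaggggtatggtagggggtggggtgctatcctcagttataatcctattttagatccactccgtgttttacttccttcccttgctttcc

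The Lama2 sequence held 0 matches and that of Lamb2 held 1, TTCCTCGAA, whose first base lies at -208 from the start. Upstream of Lama5 there were 4 matches to GGGCGG and upstream of Lamb1 there were 2, and the 2 entries of Lamb3 held 0 matches to any of the 3 motifs. A match describes these letters only.

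The 4 lists of genes that work with laminins were examined in the same fit. Of 69 genes listed, 52 were tested, 18 were called at 24 h (14 higher and 4 lower) and 20 at 48 h (17 higher and 3 lower), beside the 14% of all genes at each time. At both times, 14 of the 52 were higher and 1 was lower, against 4.91% and 4.04% of all genes. The lists were chosen with earlier results of these data known, so no excess over all genes is read from these counts. The 18 and 20 calls became fewer without any 1 of the arrays compared, as did the calls over all genes.

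Laminin receptors comprised 13 tested genes, of which 6 rose at 24 h and the same 6 at 48 h, and 0 fell. Of all genes, 8.02% were higher at 24 h and 6.58% at 48 h. The medians of the receptor changes were 0.51 (24 h) and 0.27 (48 h), against 0.04 and -0.04 over all genes. The 6 were the integrin chains Itga1, Itga2, Itga6 and Itga7 and the syndecans Sdc1 and Sdc4, which are co-receptors with heparan sulfate chains. Itga6 encodes α6, the main laminin-binding integrin chain of epithelial cells. It read 4.18 and 4.24 in unstimulated cells, 5.64 and 5.5 at 24 h, and 5.59 and 5.33 at 48 h, all stimulated arrays above the unstimulated ones. Itga6 rose by 1.35 and 1.25 (SE 0.137; adjusted p = 0.00633 and 0.00744), and at 48 h its adjusted p was 0.0526 without unstimulated replicate 1.

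Itga2 and Itga1 encode integrin chains that bind collagens as well as laminins. Itga2 was not well above background in unstimulated cells (-5.29 and -5.22) and was so at 24 h (-3.27 and -3.74) and 48 h (-3.34 and -3.41), at least 2.74-fold and 2.99-fold higher (adjusted p = 0.00617 and 0.00486). Itga1 was likewise dim in unstimulated cells (-5.16 and -5.13), and was well above background at 24 h (-3.57 and -3.69) and 48 h (-3.65 and -4.08), at least 2.48-fold and 2.11-fold higher (adjusted p = 0.00807 and 0.0122). After both forms of normexp, the log2 change of Itga2 was 0.61 and 0.42 (24 h) and 0.58 and 0.52 (48 h), and that of Itga1 was 0.54 and 0.34, then 0.37 and 0.32, all below these limits, with the call for Itga1 at 48 h lost (adjusted p = 0.0808 and 0.0531). The call for Itga1 was also lost at 48 h with no filter on dim probes (0.053), at both times when all its probes were averaged (0.125 and 0.113), and without unstimulated replicate 2 at 24 h (0.0512) or either unstimulated array at 48 h (0.0737 and 0.0675). Integrin β1 (Itgb1), β4 (Itgb4), dystroglycan (Dag1) and Itga3 were tested and not called.

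Laminin-cleaving proteases comprised 13 tested genes, of which 5 rose at 24 h, 7 at 48 h and 0 fell. The shares of all genes that were higher were 8.02% and 6.58%. The protease medians were 0.78 and 1.17, against 0.04 and -0.04 over all genes. Plau encodes urokinase, which activates plasminogen, and read -0.35 and 0.0023 in unstimulated cells, 2.25 and 3.18 at 24 h, and 1.66 and 1.81 at 48 h. Plau rose by 2.89 at 24 h (SE 0.321, adjusted p = 0.00794) and by 1.91 at 48 h (adjusted p = 0.0223), where the call was lost without any 1 of the 4 arrays compared (adjusted p from 0.0798 to 0.11).

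Mmp13, a collagenase, read -4.74 and -3.36 in unstimulated cells, where 1 of 2 arrays was well above background, -1.12 and 0.05 at 24 h, and 0.46 and 1.68 at 48 h. The groups did not overlap, and Mmp13 rose by 3.52 and 5.12 (SE 0.674, adjusted p = 0.0304 and 0.0121). After both forms of normexp it was higher by 2.13 and 2.03 (24 h) and by 3.56 and 3.49 (48 h). Its call was lost at 24 h without any 1 of the 4 arrays compared (adjusted p from 0.0636 to 0.111) and at 48 h without unstimulated replicate 1 (0.0614) or 48 h replicate 2 (0.0563). Ctss, the lysosomal protease cathepsin S, was not well above background until 48 h, where it read -3.04 and -2.42, at least 4.68-fold above unstimulated cells (adjusted p = 0.00742), although its log2 change was 0.78 and 0.71 after both forms of normexp (adjusted p = 0.0037 and 0.00831). Ctsb and Ctsl, cathepsins B and L, rose at both times by between 0.78 and 1.2.

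Basement membrane partners comprised 13 tested genes, of which 2 rose and 3 fell at 24 h, and 3 rose and 2 fell at 48 h. Over all genes, 8.02% were higher and 5.99% lower at 24 h, and 6.58% and 7.38% at 48 h. The partner medians were -0.05 and 0.12, against 0.04 and -0.04 over all genes. Nid1 encodes nidogen, which links laminin γ1 to collagen IV. It read 4.35 and 4.55 in unstimulated cells, 5.39 and 5.57 at 24 h, and 5.60 and 5.64 at 48 h, above the unstimulated arrays throughout. Nid1 rose by 1.03 and 1.17 (SE 0.131; adjusted p = 0.0106 and 0.00774). That call was lost at 24 h without unstimulated replicate 1 (0.0515) or 24 h replicate 2 (0.0597), and at 48 h without 48 h replicate 2 (0.0507).

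Col18a1, whose product carries endostatin, read 1.08 and 1.2 in unstimulated cells, 2.63 and 2.32 at 24 h, and 3.27 and 3.06 at 48 h. It rose by 1.34 and 2.03 (SE 0.156; adjusted p = 0.00885 and 0.00291), and was called at both times in every fit that left out 1 array. Sparc, a collagen-binding glycoprotein, fell by 1.01 and 0.89 (SE 0.151; adjusted p = 0.0164 and 0.0231). Hspg2, the heparan sulfate proteoglycan perlecan, fell by 0.77 at 24 h (adjusted p = 0.0287) and had a change of -0.54 at 48 h (adjusted p = 0.0649). Ntn4, a netrin that binds laminin γ chains, read -3.08 and -3.37 in unstimulated cells, -3.93 and -4.05 at 24 h, and -5.41 and -4.37 at 48 h. It was not well above background on 24 h replicate 2 or 48 h replicate 1, so that its differences include readings at background. They were -0.76 (adjusted p = 0.207) and -1.66 (SE 0.344, adjusted p = 0.0364), and the latter became -0.41 and -0.43 after both forms of normexp (adjusted p = 0.0477 and 0.0318). Among the fits that left out 1 array, the call at 48 h was kept only in that without 48 h replicate 2. The collagen IV chains Col4a1 and Col4a2 were not called.

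Hemidesmosome and focal contact genes comprised 16 tested genes, of which 2 rose and 1 fell at each time. Of all genes, 8.02% were higher and 5.99% lower at 24 h, and 6.58% and 7.38% at 48 h. The medians of this list were 0.15 and 0.02, against 0.04 and -0.04 over all genes. The gene that fell was Vcl at 24 h and Parva at 48 h (-0.60; limma, adjusted p = 0.0392). Col17a1 encodes the transmembrane collagen of hemidesmosomes. It was not well above background in unstimulated cells (-6.75 and -6.73), with readings of -2.16 and -2.49 after 24 h, and of -3.63 and -3.65 after 48 h. It was at least 6.18-fold higher at 24 h and 2.49-fold at 48 h (adjusted p = 0.000946 and 0.00104), and the difference between the times, -1.31, had an adjusted p of 0.104. After normexp with the 75th percentile or quantile normalization, the log2 change of Col17a1 was 1.3 or 1.18 (24 h) and 0.62 or 0.60 (48 h; adjusted p from 0.000242 to 0.00804), folds below these limits, and the difference between the times was called under the first (-0.68, adjusted p = 0.0446). Vcl, vinculin of focal contacts, fell by 0.80 at 24 h (SE 0.157, adjusted p = 0.0318), a call lost whichever array was left out. Its change at 48 h was -0.44 (adjusted p = 0.13). Itga6 is also in this list, and the keratins Krt5 and Krt14 were not called.

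**Figure D4:**
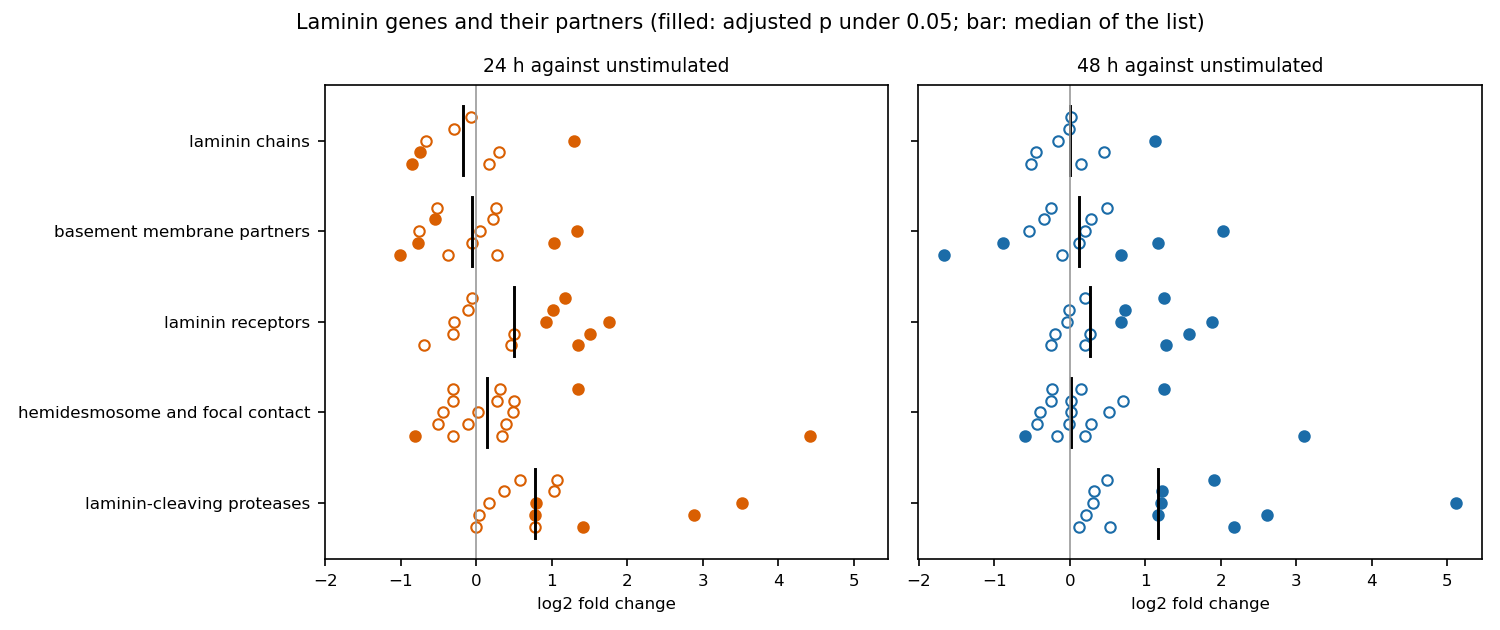
Log2 fold change (horizontal axis) at 24 h and 48 h against unstimulated cells of every tested gene in the laminin family and 4 lists of partners; rows are lists, and height within a row has no meaning. Filled points passed an adjusted p of 0.05 and bars are medians, which were -0.18 and 0.0036 for the 8 laminin chains and 0.78 and 1.17 for the 13 proteases.

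The plot of the lists sets the laminin chains beside their partners. The 3 genes with a pattern nearest to that of Lama2 over the 6 arrays, by Euclidean distance of values centred on the mean of each gene, were Naip1 (0.161), Sat1 (0.171) and Bnip3 (0.183). Sat1, for example, read 2.94 and 3.04 in unstimulated cells, 4.27 and 4.36 at 24 h, and 3.96 and 4.43 at 48 h. Its likeness to Lama2 follows from how it was picked. Among all genes tested, 4.91% were called higher at both times.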

How the data were processed

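Expression was measured on 6 single-color arrays, 2 per group, grouped by the labels. The authors deposited, per array, the output of Agilent Feature Extraction 11.0.1 (version per the labels), a background-subtracted spot intensity not normalized between arrays; mean pixel and local background intensities from the same deposited files served alternatives. A further deposited file of log2 values, covering some of the probes, served as another alternative.

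Outlier spots were left out (303 probes lost), repeated spots averaged, and the log2 intensity minus the 75th percentile of the array taken. The brightest probe stood for each gene, and genes whose probe passed the background flag on both arrays in any group were kept. All arrays entered 1 limma 3.58.1 fit (lmFit, eBayes, 2-sided; R 4.3.3), with Benjamini-Hochberg adjustment over 24648 genes. The procedure was also tested on simulated data, whose outcome is not given here and on which no result above rests. Replicate arrays correlated at 0.9926 to 0.9936 across genes. The number of arrays limits the precision.

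Members and lists were chosen with earlier results of these data known. 1 laminin chain and some marker genes are not reported here. Named were the other laminins, the 3 most changed genes called per list, others after their values were seen, and the nearest patterns to Lama2. Alternatives covered normalization, background, filter, probes, prior, pairing, slide, test and left-out arrays.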

Additional observations from a re-analysis of the deposited data

How the results depend on the processing

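With 2 arrays per group, each laminin call was lost without some single array. Col18a1, Itga2 and Col17a1 were called at both times whichever array was left out. The number of laminin chains called at 24 h (3) became 0 with no filter on dim probes and 0 with the methods' t-test after adjustment, and lay between 0 and 2 with 1 array left out. At 48 h (1) it became 0, 0 and 2 with no filter, the t-test and an intensity trend, and lay between 0 and 1 with 1 array left out. The genes called in the 4 other lists (18 at 24 h, 20 at 48 h) became 10 and 9 with no filter and 0 and 0 with the t-test, and lay between 7 and 15 and between 8 and 16 with 1 array left out. Between 48 h and 24 h, 0 genes of these lists became 4 and 3 after normexp with the 75th percentile or quantile normalization, and 1 with an intensity trend. The methods' t-test called 5403 genes at 24 h and 5485 at 48 h at an unadjusted p-value under 0.05, and 0 after adjustment. The slide of 24 h replicate 1 was tested only by leaving that array out.

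Replicate numbers are shared between groups, but the labels do not say that they mark an experiment. Deviations of same-numbered arrays correlated at 0.128, 0.0943 and 0.199. These positive values do not settle whether the arrays are paired, and the main fit did not pair them since the labels do not. With the replicate number as a block, 2 laminin chains were called at 24 h and 1 at 48 h, with 21 and 20 genes of the other lists. Lamc3 at 24 h (adjusted p = 0.0629) and Ntn4 at 48 h (0.0546) were no longer called. Across all genes, the block gave 2242 higher and 1558 lower at 24 h, against 1977 and 1476 without it. At 48 h it gave 1841 and 2126, against 1621 and 1819.

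Centring each array on its median moved the median of all genes from 0.04 to -0.25 at 24 h and from -0.04 to -0.14 at 48 h, and Lama2 moved with it, to 1.01 and 1.03.

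Signs turned only for changes that had not passed the test. At 24 h against unstimulated cells, Lamb3 was -0.17 (quantile), -0.12 (median centring) and -0.0269 (normexp, quantile), and Ctss -0.16 (normexp, quantile). With 1 array left out, Lama3 lay between -0.25 and 0.11 and Lamb3 between -0.20 and 0.53. At 48 h, Lama3 was 1.07 (mean of probes), Lamb3 -0.0945, -0.0871 and -0.0101 in the 3 settings named above, and Lamc3 0.007035 (the authors' log2 values). With 1 array left out, Lama3 lay between -0.34 and 0.0231, Lama5 between -0.11 and 0.42, Lamb3 between -0.42 and 0.44, and Lamc3 between -0.18 and 0.17. Between 48 h and 24 h, median centring gave 0.0269 for Lama2, 0.0997 for Lama3, 0.0321 for Lamb3 and 0.0772 for Itga6. Lama3 was 1.13 (mean of probes), Lamb3 0.076 (quantile) and 0.0168 (normexp, quantile), Itga2 -0.0249 (normexp, 75th percentile), and Itga1 0.0464 (quantile) and 0.10 (mean of probes).
With 1 array left out, Lama2 lay between -0.36 and 0.0485, Lamb3 between -0.58 and 0.28, Lamc1 between -0.0479 and 0.36, Itga2 between -0.11 and 0.36, and Itga6 between -0.24 and 0.027. The causes were not tested.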
